A study of Danio rerio with 16 samples.

Results

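The genes described here are the laminins, the integrins and the linker proteins of the basement membrane in the adult zebrafish ventricle. They were chosen by symbol: laminin alpha, beta and gamma chains, integrin alpha and beta chains, nidogens, perlecan (HSPG2) and agrin (AGRN), with a total of at least 50 counts over 16 libraries. Of 52 gene IDs with such a symbol, 44 reached that total, among 32520 gene IDs in the table. The members are 4 laminin alpha, 4 laminin beta and 3 laminin gamma chains, 5 nidogen, perlecan and agrin genes, 15 integrin alpha chains, 11 integrin beta chains, and 2 genes that the symbol rule also takes in, ITGB1BP1 and itgb3bp, which are not integrins. ITGA2, with 50 counts in all, lies just inside the minimum, and lamb4, with 49, just outside it. The other genes left out were ITGB6, itga2.1, itga3a, itga6l, nid2b, and lama3 and lamb3, both with 0 counts in every library.

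The 4 groups were cryoinjured ankrd1a mutants, cryoinjured wild type, sham-operated ankrd1a mutants and sham-operated wild type. The mutants carried ankrd1abns502, an allele made by CRISPR/Cas9. Its gene encodes a striated muscle protein with ankyrin repeats. The wild type was of the AB (Oregon) strain. Cryoinjury was a 25 s contact of the ventricular apex with a probe chilled in liquid nitrogen, and sham fish had the same operation with an uncooled probe. All fish recovered for 7 days. Each group had 4 libraries of poly(A)-selected RNA, each from a pool of 3 whole ventricles, so that wound and uninjured muscle are mixed. The labels give the fish as adult, with no age. The replicates are separate pools, and p-values set differences between groups against an estimate of the spread between pools that the 4 groups share.

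The basement membrane is a thin sheet of matrix that surrounds each cardiomyocyte and underlies the endocardium, the vessels and the epicardium. Its laminins are trimers of an alpha, a beta and a gamma chain, which polymerize on the cell surface and are tied to the collagen IV network by nidogens and by the heparan sulfate proteoglycans perlecan and agrin. Integrins, pairs of 1 alpha and 1 beta chain, bind laminin, collagen or RGD-containing proteins such as fibronectin outside the cell, and connect through talin and kindlin to actin inside it. Integrins of the beta 2 and beta 7 kind are carried by leukocytes, and the pair of alpha IIb and beta 3 is the fibrinogen receptor of platelets, called thrombocytes in fish.

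Values are counts per 1000000 counts after TMM scaling (CPM), which are not corrected for gene length and so are compared between groups and not between genes. Total counts ran from 5623721 to 12254719 per library. ANKRD1 is the symbol of 2 gene IDs, and which of them is ankrd1a could not be told from the symbols, so these counts do not check the genotype labels. The more abundant ID, ENSDARG00000075263, was at 23.0 ± 8.35 CPM in mutants and 23.8 ± 15.6 CPM in wild type after injury, and at 0.48 ± 0.306 CPM in mutants and 1.77 ± 1.88 CPM in wild type after sham operation (SD, n = 4 each). Several zebrafish paralogs share 1 symbol in the same way, and those members are given with their Ensembl ID. RSEM is among the named tools, but its settings for reads shared by paralogs are not given in the sources used here. Of the 44 members, 41 had whole numbers in every library. The exceptions were ITGA6 with 3 values that were not whole and the ITGB1 IDs ENSDARG00000022689 and ENSDARG00000053232 with 2 each.

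After cryoinjury, many of the member genes were higher, most of them integrins and nidogens, and 1 was lower. Tests used edgeR's quasi-likelihood F test with Benjamini-Hochberg adjustment over 14986 genes, and a gene is called changed at an adjusted p below 0.05. Of the 44 members, 37 had enough counts to be tested. In mutants 19 of the 37 members were called, 18 higher and 1 lower (51.4%), against 28.9% of all tested genes called and 16.5% called higher. In wild type 18 of the 37 were called, all of them higher (48.6%), against 25.3% of all tested genes called and 13.9% called higher. By role, 1 of 4 laminin alpha, 1 of 3 beta and 0 of 3 gamma chains were called higher in mutants. In wild type these were 3 of 4, 1 of 3 and 1 of 3. Of the nidogen, perlecan and agrin genes, 4 of 5 were called higher in mutants and 3 of 5 in wild type. Of the integrin beta chains, 6 of 9 were called higher in mutants and 4 of 9 in wild type. The median log2 fold change over the tested members was 0.69 in mutants and 0.64 in wild type, against -0.01 and 0.01 over all tested genes. The 2 injury comparisons share no library, and 14 members were called in both: LAMA1, LAMB1 (ENSDARG00000101209), both NID1 IDs, NID2, ITGA4, ITGA6, ITGA9, ITGAV, itga2b, itgb2, ITGB3 (ENSDARG00000045070), ITGB5 and itgb7. Another 5 were called in mutants alone and 4 in wild type alone, but the test of the difference called none of them. These overlap counts have no share over all tested genes beside them, and both comparisons use the same estimate of the spread.

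**Figure D1:**
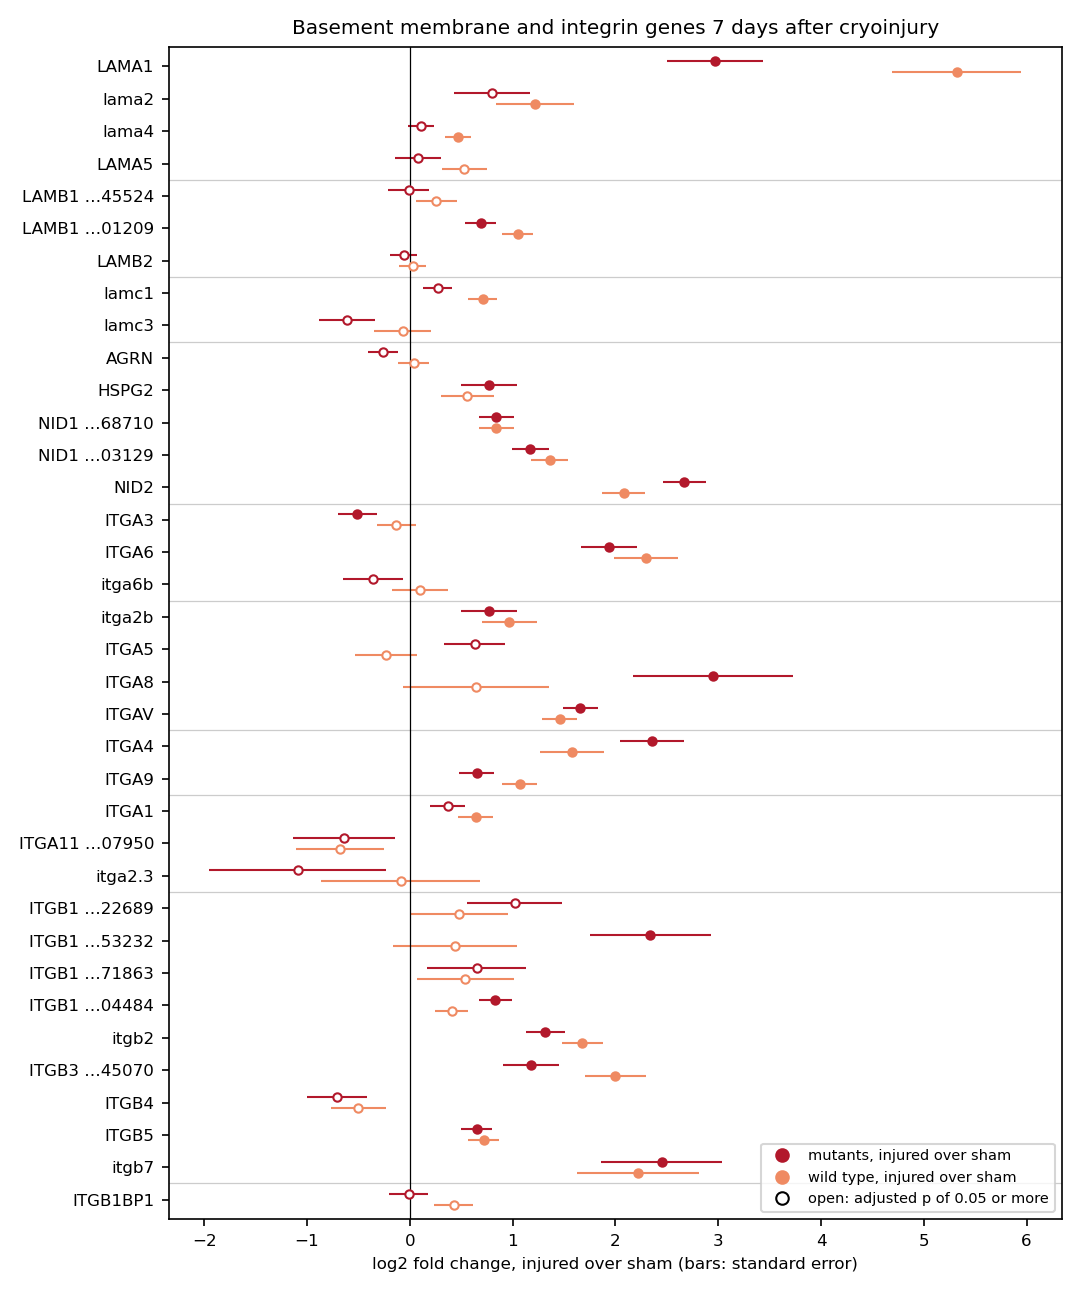
Log2 fold change of injured over sham ventricles for the tested members reported here, grouped by role, in mutants and in wild type; points are edgeR estimates, bars are standard errors, filled points are called at an adjusted p below 0.05, and the last 5 digits of the Ensembl ID follow a symbol that several IDs share. LAMA1 in wild type lies farthest to the right at 5.32, and ITGA3 in mutants at -0.51 is the only filled point left of 0.

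Among the laminin alpha chains, LAMA1 (ENSDARG00000102277), the alpha chain of embryonic basement membranes, had the highest injury fold change. It had 18.2, 6.24, 16.1 and 13.4 CPM in mutants and 7.28, 16.4, 12.6 and 14.8 CPM in wild type after injury. In sham hearts LAMA1 had 3.19, 1.95, 0.39 and 1.20 CPM in mutants and 0.684, 0.476, 0 and 0 CPM in wild type. Injured and sham libraries did not overlap in either genotype, and in sham wild type the gene rested on at most 4 counts per library. The log2 fold change was 2.97 (SE 0.47, adjusted p = 0.000192) in mutants and 5.32 (SE 0.63, adjusted p = 1.5e-05) in wild type; with so few counts in sham wild type, the size of the second depends on the prior count of the fit. LAMA1 also had the lowest p of the interaction among the members, with a difference of the 2 injury effects of -2.35 (SE 0.87, unadjusted p = 0.0144, adjusted p = 0.519), which was not called. In sham fish 3 of 4 mutant libraries were above all wild-type ones, without a call (log2 fold change 2.43, adjusted p = 0.0696). Injured mutants and injured wild type differed by 0.08 (95% interval -0.74 to 0.91).

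The alpha chain of muscle basement membranes, lama2 (ENSDARG00000099390), rose in wild type, with 12.2, 4.30, 6.08 and 9.24 CPM in injured libraries, against 2.22, 3.18, 3.29 and 4.95 CPM in sham libraries. These groups overlapped, the log2 fold change was 1.22 (SE 0.38, adjusted p = 0.0242), and leaving out injured wild type replicate 1 raised the adjusted p to 0.093. In mutants lama2 ranged from 3.54 to 9.65 CPM after injury, against 2.27 to 5.39 CPM after sham operation, and was not called (0.80, adjusted p = 0.112). The vascular and endocardial chain lama4 (ENSDARG00000020785) was called in wild type alone, at 201, 271, 276 and 280 CPM in injured against 200, 196, 180 and 165 CPM in sham libraries. Every injured wild-type library lay above every sham one, 1 of them by 1 CPM, and the log2 fold change was 0.47 (SE 0.13, adjusted p = 0.0132); in mutants it was 0.11 (95% interval -0.17 to 0.39). LAMA5, the alpha chain of mature vascular and epithelial basement membranes, was not called after injury in either genotype and is described with the genotype differences. Without injured wild type replicate 1 it was called higher in wild type (0.73, SE 0.19, adjusted p = 0.0116).

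Of the beta chains, the LAMB1 ID ENSDARG00000101209 rose in both genotypes and its paralog did not pass the test in either. ENSDARG00000101209 had 150, 160, 149 and 140 CPM in mutants and 145, 190, 193 and 204 CPM in wild type after injury. After sham operation ENSDARG00000101209 was at 89.1, 97.8, 80.6 and 104 CPM in mutants and 79.9, 103, 67.7 and 104 CPM in wild type. No injured library overlapped a sham one, and the log2 fold change was 0.69 (SE 0.15, adjusted p = 0.00271) in mutants and 1.05 (SE 0.15, adjusted p = 0.000107) in wild type. The other ID, ENSDARG00000045524, averaged 108 ± 21.1 CPM in mutants and 107 ± 31.2 CPM in wild type after injury, against 109 ± 16.4 CPM in mutants and 89.8 ± 13.4 CPM in wild type after sham operation (SD, n = 4 each). The share of ENSDARG00000101209 in the sum of both was 58.3% ± 6.03 in mutants and 63.6% ± 4.90 in wild type after injury, against 46.2% ± 5.92 in mutants and 49.5% ± 6.31 in wild type after sham operation (SD, n = 4 each). This share does not depend on how libraries are scaled. LAMB2, the beta chain of mature muscle and vessel basement membranes and the beta chain with the most counts, ran from 355 to 522 CPM over all 16 libraries. Its log2 fold change after injury was -0.06 (95% interval -0.33 to 0.21) in mutants and 0.03 (95% interval -0.24 to 0.30) in wild type. The related gene lamb2l had at most 22 counts in a library and was not tested.

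The gamma chain of most laminins, lamc1 (ENSDARG00000036279), rose in wild type and was not called in mutants. It had 247, 182, 257 and 223 CPM in mutants and 259, 335, 350 and 278 CPM in wild type after injury. Sham values of lamc1 were 189, 197, 176 and 190 CPM in mutants and 205, 208, 155 and 179 CPM in wild type. In wild type the groups did not overlap (0.71, SE 0.14, adjusted p = 0.00143), and in mutants replicate 2 lay within the sham range (0.27, SE 0.14, adjusted p = 0.163). The difference between these injury effects was -0.44 (SE 0.20, unadjusted p = 0.043, adjusted p = 0.629) and was not called. The gamma chain gene lamc3 stayed between 2.87 and 7.48 CPM in all libraries and was not called in any comparison.

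All 3 nidogen genes rose in both genotypes, and NID2 did so the most. NID2 (ENSDARG00000075707) had 83.6, 71.5, 76.4 and 67.6 CPM in mutants and 54.5, 97.8, 57.9 and 58.9 CPM in wild type after injury. After sham operation NID2 was at 13.9, 11.7, 12.3 and 9.28 CPM in mutants and 18.3, 18.9, 10.9 and 15.2 CPM in wild type. The lowest injured library thus lay far above the highest sham one, and the log2 fold change was 2.67 (SE 0.21, adjusted p = 4.69e-07) in mutants and 2.08 (SE 0.21, adjusted p = 3.61e-06) in wild type. The NID1 ID ENSDARG00000103129 had 190, 177, 161 and 163 CPM in mutants and 200, 248, 309 and 178 CPM in wild type after injury. Sham values of ENSDARG00000103129 were 82.5, 65.8, 68.7 and 89.2 CPM in mutants and 79.7, 93.0, 76.3 and 116 CPM in wild type. Here too the injured libraries lay above all sham ones (1.17, SE 0.18, adjusted p = 0.00013 in mutants; 1.36, SE 0.18, adjusted p = 4.18e-05 in wild type). The second NID1 ID, ENSDARG00000068710, had a log2 fold change of 0.84 (SE 0.17) in each genotype, with adjusted p = 0.00147 in mutants and 0.00157 in wild type.

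The proteoglycans moved less. Perlecan, HSPG2 (ENSDARG00000076564), had 79.1, 38.3, 82.4 and 98.7 CPM in mutants and 73.3, 101, 89.9 and 114 CPM in wild type after injury. In sham hearts HSPG2 had 50, 45.6, 24.0 and 55.2 CPM in mutants and 78.0, 67.3, 64.0 and 48.0 CPM in wild type. Injured and sham libraries overlapped in both genotypes; the gene was called higher in mutants (0.77, SE 0.27, adjusted p = 0.0367) and not in wild type (0.56, SE 0.26, adjusted p = 0.134). Without injured mutant replicate 4 the adjusted p in mutants was 0.117. Agrin, known to promote cardiomyocyte proliferation in mouse, averaged 99.4 ± 10.7 CPM in mutants and 123 ± 10.3 CPM in wild type after injury, against 119 ± 21.2 CPM in mutants and 120 ± 15.6 CPM in wild type after sham operation (SD, n = 4 each). Its injury log2 fold change was -0.26 (95% interval -0.56 to 0.05) in mutants and 0.04 (95% interval -0.27 to 0.34) in wild type.

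**Figure D2:**
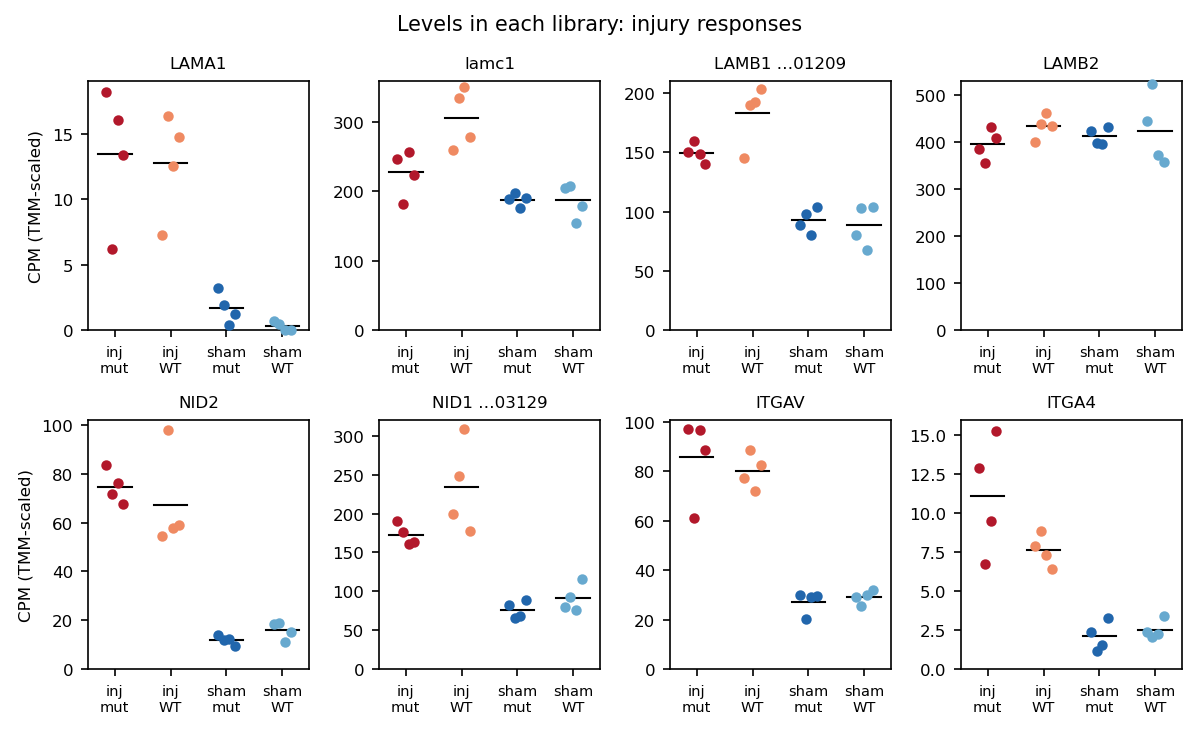
CPM (linear axis from 0) in each of the 16 libraries for 8 members, with injured (inj) mutants (mut), injured wild type (WT), sham mutants and sham wild type from left to right; points are libraries and lines are group means. NID2 in injured libraries (54.5 to 97.8 CPM) lies clear of sham libraries (9.28 to 18.9 CPM), while LAMB2 runs from 355 to 522 CPM in all groups.

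Of the laminin-binding integrin alpha chains, ITGA6 rose in both genotypes. ITGA6 (ENSDARG00000042282), whose product pairs with beta 1 or beta 4 to bind laminin, had 56.3, 30.7, 27.0 and 20.8 CPM in mutants and 18.1, 16.6, 11.2 and 19.5 CPM in wild type after injury. After sham operation ITGA6 was at 8.32, 6.82, 9.37 and 10.4 CPM in mutants and 3.42, 3.18, 2.26 and 4.27 CPM in wild type. Injured libraries lay above sham ones in both genotypes, with a log2 fold change of 1.94 (SE 0.27, adjusted p = 7.3e-05) in mutants and 2.30 (SE 0.31, adjusted p = 4.57e-05) in wild type. Its paralog itga6b (ENSDARG00000069946) was not called after injury in mutants (-0.36, 95% interval -0.96 to 0.24) or in wild type (0.10, 95% interval -0.47 to 0.66). ITGA3, the other laminin-binding alpha chain, had 20.9, 18.9, 27.6 and 36.5 CPM in injured mutants, against 40.1, 37.2, 34.2 and 37.5 CPM in sham mutants. Those groups overlapped, the fall of 0.51 on the log2 scale had an adjusted p of 0.0497, and the call was lost when any of 14 of the 16 libraries was left out, so it stands at the edge of the threshold. Of the collagen-binding chains, ITGA1 rose in wild type, with 46.5, 59.1, 55.3 and 53.6 CPM in injured against 37.8, 33.7, 35.0 and 30.9 CPM in sham libraries (0.64, SE 0.17, adjusted p = 0.00948). In mutants ITGA1 ranged from 28.2 to 55.2 CPM after injury, against 31.9 to 38.2 CPM after sham operation (0.37, adjusted p = 0.111). ITGA10, ITGA2 and the ITGA11 ID ENSDARG00000036086 had at most 15 counts in a library and were not tested, and itga2.3 was between 0 and 5.68 CPM and not called.

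Of the RGD-binding alpha chains, ITGAV rose most clearly. ITGAV (ENSDARG00000006314), the partner of beta 3, beta 5 and beta 1 in receptors for vitronectin and fibronectin, had 97.1, 60.9, 96.7 and 88.5 CPM in mutants and 77.3, 88.7, 72.1 and 82.5 CPM in wild type after injury. Sham values of ITGAV were 29.8, 20.1, 29.3 and 29.5 CPM in mutants and 29.1, 25.6, 29.8 and 32.1 CPM in wild type. There was no overlap, and the log2 fold change was 1.66 (SE 0.17, adjusted p = 2.76e-06) in mutants and 1.46 (SE 0.17, adjusted p = 1.1e-05) in wild type. ITGA5, the fibronectin receptor chain and the alpha chain with the most counts, had 403, 210, 176 and 135 CPM in mutants and 176, 93.7, 117 and 158 CPM in wild type after injury. In sham hearts ITGA5 had 113, 160, 153 and 170 CPM in mutants and 137, 110, 155 and 237 CPM in wild type. The groups overlapped throughout, 1 injured mutant library stood far above the rest, and ITGA5 was not called in any comparison (injury in mutants 0.63, adjusted p = 0.117; injury in wild type -0.23, adjusted p = 0.622). ITGA8 (ENSDARG00000078717), known from smooth muscle and mesenchyme, had 1.07, 1.52, 4.68 and 1.00 CPM in mutants and 1.23, 2.09, 0.496 and 0.831 CPM in wild type after injury. After sham operation ITGA8 was at 0.416, 0.650, 0 and 0 CPM in mutants and 0.855, 0.635, 0.412 and 1.02 CPM in wild type. It was called higher in mutants (2.95, SE 0.78, adjusted p = 0.00905), from at most 4 counts per sham mutant library, and without injured mutant replicate 3 its adjusted p was 0.0524. In wild type it was not called (0.64, adjusted p = 0.554), and the difference between the genotypes was not called either (2.30, unadjusted p = 0.048, adjusted p = 0.647).

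ITGA4 and ITGA9, the alpha chains that bind VCAM and the tenascin and osteopontin group, rose in both genotypes. ITGA4 (ENSDARG00000103056) had 12.9, 6.75, 9.49 and 15.3 CPM in mutants and 7.89, 8.84, 7.32 and 6.44 CPM in wild type after injury. Sham values of ITGA4 were 2.36, 1.14, 1.56 and 3.29 CPM in mutants and 2.39, 2.06, 2.26 and 3.41 CPM in wild type. Injured and sham libraries did not overlap in either genotype, and the log2 fold change was 2.36 (SE 0.31, adjusted p = 3.42e-05) in mutants and 1.58 (SE 0.31, adjusted p = 0.00123) in wild type. ITGA9 had 11.0, 10.3, 12.0 and 12.9 CPM in mutants and 15.9, 17.9, 16.0 and 17.8 CPM in wild type after injury. In sham hearts ITGA9 had 7.62, 7.47, 6.64 and 7.58 CPM in mutants and 8.89, 10.3, 6.38 and 6.49 CPM in wild type. The log2 fold change was 0.65 (SE 0.17, adjusted p = 0.00839) in mutants and 1.07 (SE 0.17, adjusted p = 0.000221) in wild type, and all injured mutants lay below all injured wild type without a call between them (-0.55, adjusted p = 0.0886).

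Among the beta chains, itgb2, the beta chain of the leukocyte integrins, had 62.2, 73.4, 85.5 and 98.8 CPM in mutants and 64.4, 76.5, 81.5 and 80.8 CPM in wild type after injury. After sham operation itgb2 was at 42.4, 29.2, 28.1 and 28.8 CPM in mutants and 28.4, 29.4, 17.5 and 19.3 CPM in wild type. The injured libraries did not overlap the sham ones (1.32, SE 0.19, adjusted p = 9.88e-05 in mutants; 1.68, SE 0.20, adjusted p = 1.49e-05 in wild type). The lymphocyte chain itgb7 had 2.55, 4.05, 3.20 and 8.86 CPM in mutants and 5.43, 4.53, 2.73 and 5.40 CPM in wild type after injury. Sham values of itgb7 were 1.39, 0.650, 0.976 and 0.499 CPM in mutants and 2.05, 0, 0.412 and 1.37 CPM in wild type. The gene was called in both (2.45, adjusted p = 0.0046 in mutants; 2.22, adjusted p = 0.0104 in wild type). Over all tested genes, 16.5% were called higher after injury in mutants and 13.9% in wild type. Beside itgb2, itgb7 and ITGA4, 7 of 8 leukocyte marker genes (ptprc, CORO1A, LCP1, csf1ra, marco, SPI1 and cd74a) were called higher after injury in each genotype. Their list summed to between 630 and 1074 CPM in mutants and between 514 and 822 CPM in wild type after injury. In sham hearts the list had 200 to 412 CPM in mutants and 119 to 194 CPM in wild type. Its part in the rise of itgb2, itgb7 and ITGA4 was not tested. In these bulk samples more cells of a type and more RNA per cell cannot be told apart.

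The ITGB3 ID ENSDARG00000045070, a partner of ITGAV and of alpha IIb, had 78.8, 34.7, 88.4 and 77.2 CPM in mutants and 55.0, 26.9, 27.7 and 41.8 CPM in wild type after injury. After sham operation ENSDARG00000045070 was at 29.1, 26.6, 26.2 and 41.4 CPM in mutants and 9.75, 7.46, 12.3 and 8.36 CPM in wild type. It rose after injury in both genotypes (1.18, SE 0.27, adjusted p = 0.0038 in mutants, with overlapping libraries; 2.00, SE 0.30, adjusted p = 0.000112 in wild type, with none). The alpha IIb gene itga2b, which marks thrombocytes, averaged 26.7 ± 7.10 CPM in mutants and 31.0 ± 7.61 CPM in wild type after injury. Sham values of itga2b were 15.7 ± 4.34 CPM in mutants and 15.9 ± 5.50 CPM in wild type (SD, n = 4 each). Its log2 fold change was 0.77 (SE 0.27, adjusted p = 0.041) in mutants, where leaving out any of 7 of the 16 libraries ended the call, and 0.97 (SE 0.27, adjusted p = 0.0146) in wild type. Of 7 thrombocyte marker genes, 3 were called higher after injury in mutants (42.9%) and 2 in wild type (28.6%). Of all tested genes, 16.5% in mutants and 13.9% in wild type were called higher. In wild type the THBS1 IDs averaged 265 and 274 CPM after injury, against 89.0 and 127 CPM after sham operation. There GP1BB averaged 7.58 against 6.18 CPM, mpl 4.57 against 3.65 CPM and gp9 2.95 against 3.52 CPM. In mutants GP1BB averaged 28.7 against 15.1 CPM, mpl 5.72 against 4.73 CPM and gp9 2.72 against 4.27 CPM. The log2 fold change was above 0 for 5 of these 7 markers in mutants and for 6 in wild type. Their part in the rise of itga2b and ITGB3 was not tested. ITGB5, another ITGAV partner, had a narrow spread, from 17.3 to 20.9 CPM in mutants and 15.9 to 21.3 CPM in wild type after injury. In sham hearts ITGB5 had 11.2 to 13.4 CPM in mutants and 10.2 to 12.6 CPM in wild type. The groups did not overlap, and it was called in both (0.65, adjusted p = 0.00302 in mutants; 0.72, adjusted p = 0.00153 in wild type).

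The beta 1 chain, the common partner of most laminin, collagen and fibronectin receptors, is spread over 4 gene IDs. ENSDARG00000104484 had 237, 133, 196 and 164 CPM in mutants and 169, 127, 136 and 156 CPM in wild type after injury. After sham operation ENSDARG00000104484 was at 108, 102, 96.0 and 105 CPM in mutants and 114, 104, 96.3 and 128 CPM in wild type. It was called higher in mutants, with no overlap (0.83, SE 0.16, adjusted p = 0.00103), and not in wild type, where the groups overlapped (0.41, SE 0.16, adjusted p = 0.0712); the difference was not called (0.42, unadjusted p = 0.0819). The low-count ID ENSDARG00000053232 had 6.03, 1.18, 2.46 and 2.24 CPM in injured mutants, against 0.554, 0.162, 0.586 and 0.898 CPM in sham mutants, and was called there (2.34, SE 0.59, adjusted p = 0.00653) and not in wild type (0.44, adjusted p = 0.641). Its expected counts are uncertain, since reads can be split between such closely related genes. ITGB4, ITGB1 ENSDARG00000071863 and ENSDARG00000022689 were not called after injury, although without injured mutant replicate 4 ENSDARG00000071863 was called higher in mutants (1.03, SE 0.29, adjusted p = 0.0156). Among the remaining beta chains, ITGB8 and the ITGB3 ID ENSDARG00000056767, with at most 15 and 42 counts in a library, were not tested. Of the 2 proteins that are not integrins, ITGB1BP1, which binds the beta 1 tail, was not called in any comparison, and itgb3bp was at 5 to 16 counts in injured mutants and 1 to 14 counts in injured wild type, against at most 1 count in sham mutants and 0 counts in sham wild type. It had 0.67, 2.19, 0.739 and 1.23 CPM in injured mutants, against at most 0.195 CPM in sham mutants. In injured wild type itgb3bp had 1.73, 0.465, 0.496 and 0.104 CPM, so that its level there rested on 1 library.

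Markers of fibroblasts, smooth muscle, the epicardium and cardiomyocytes also moved with injury. The counts below stand beside 16.5% of all tested genes called higher in mutants and 13.9% in wild type. In either direction, 28.9% of all tested genes were called in mutants and 25.3% in wild type. The fibroblast list summed to 3942 to 5807 CPM in mutants and 5332 to 5735 CPM in wild type after injury. Sham values of that list were 1095 to 1511 CPM in mutants and 1193 to 1564 CPM in wild type. Of its 7 genes, 6 were called higher after injury in each genotype. Of 7 tested smooth muscle genes, 6 were called higher in mutants and 5 in wild type, with a list sum of 769 to 1021 CPM in mutants and 439 to 652 CPM in wild type after injury. Sham values of that sum were 387 to 546 CPM in mutants and 231 to 395 CPM in wild type. Of 6 epicardial genes, 2 were called higher after injury in mutants (wt1b and ALDH1A2) and 5 in wild type (both of these, tfa, WT1 and TBX18). The cardiomyocyte list summed to 27550 to 44272 CPM in mutants and 24774 to 31563 CPM in wild type after injury. In sham hearts the list had 45367 to 60714 CPM in mutants and 39572 to 44366 CPM in wild type. Of its 6 tested genes, 2 were called lower after injury in mutants and 3 in wild type. The endothelial and endocardial list ran from 782 to 908 CPM in mutants and 657 to 845 CPM in wild type after injury. After sham operation the list was at 778 to 931 CPM in mutants and 705 to 847 CPM in wild type. Of its 7 genes, kdrl was called lower after injury in each genotype. No gene of any marker list was at 0 counts in every library. The part of these lists in the rise of the nidogens, LAMA1, LAMB1 and ITGAV was not tested.

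In injured or in sham fish, 7 members were called between genotypes, some with overlapping libraries. Called lower in mutants were LAMA5 and itga6b in injured fish, ITGB1 ENSDARG00000071863 and ITGA11 ENSDARG00000007950 in sham fish, and ITGB4 in both. Called higher were ITGA6 in both states and ITGB3 ENSDARG00000045070 in sham fish. In injured fish 4 of 37 members were called, 1 higher and 3 lower in mutants (10.8%), against 2.56% of all tested genes called and 1.44% called lower. In sham fish 5 of 37 were called, 2 higher and 3 lower in mutants (13.5%), against 5.81% of all tested genes called and 3.19% called lower. ITGA6 and ITGB4 were called in both. The 4 calls in injured fish depended on the fit: there were 7 by DESeq2's Wald test, 1 when the injured groups were fitted alone, and 0 without injured wild type replicate 3. Over all genes, DESeq2 called 634 of 14973 in that comparison, against 384 of 14986 by edgeR. The counts from the other fits have no share over all genes beside them. The 5 calls in sham fish became 2 without any of sham mutant replicates 2 and 4 and sham wild type replicates 1 and 2. The genotype comparisons share their libraries with the injury comparisons. None of the RefSeq entries with these 7 symbols lies on the chromosome of ankrd1a in the GRCz12tu assembly, which was used for names and neighbours only.

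**Figure D3:**
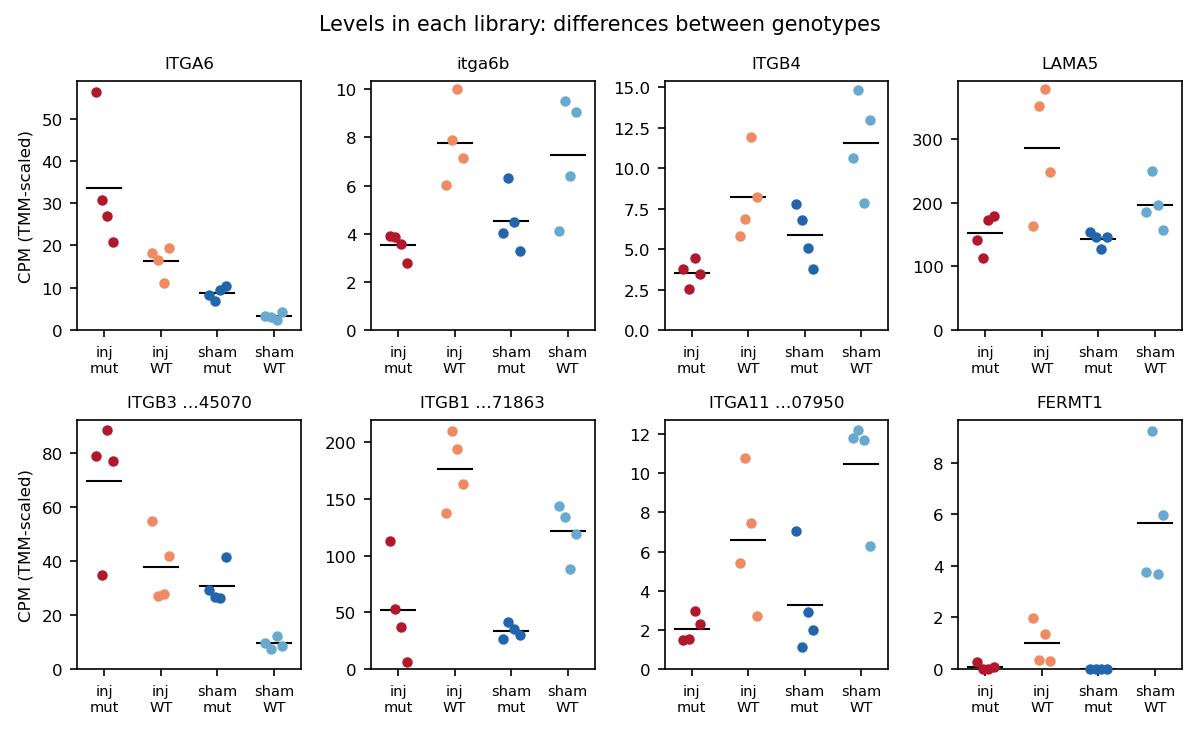
CPM (linear axis from 0) in each of the 16 libraries for the 7 members called between genotypes and the partner gene FERMT1, with injured (inj) mutants (mut), injured wild type (WT), sham mutants and sham wild type from left to right; points are libraries and lines are group means. ITGA6 is higher and ITGB4 lower in mutants on both sides of the injury comparison, and LAMA5 libraries of injured mutants (113 to 180 CPM) overlap those of injured wild type (163 to 379 CPM).

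ITGA6, whose values are given above, was higher in mutants in both states, with no overlap of the genotypes. The log2 fold change of mutants over wild type was 1.04 (SE 0.26, adjusted p = 0.0421) in injured fish and 1.40 (SE 0.31, adjusted p = 0.0124) in sham fish. Without injured mutant replicate 1, the highest library, the adjusted p in injured fish was 0.144. The call in injured fish was lost in 8 of 16 fits with 1 library left out, and that in sham fish in 0. With the injured groups fitted alone the adjusted p was 0.126. Its paralog itga6b had 3.89, 3.88, 3.57 and 2.77 CPM in injured mutants, against 6.04, 7.91, 10.0 and 7.16 CPM in injured wild type. Sham mutants had 4.02, 6.33, 4.49 and 3.29 CPM, against 4.10, 9.53, 6.38 and 9.05 CPM in sham wild type. It was lower in injured mutants with no overlap (-1.15, SE 0.28, adjusted p = 0.0322; 0.106 without injured wild type replicate 3) and not called in sham fish (-0.70, adjusted p = 0.161). The alpha 6 paralogs differed between genotypes in opposite directions: itga6b made up 10.3% ± 2.56 of their summed CPM in injured mutants, against 32.9% ± 10.1 in injured wild type. Its share was 34.3% ± 10.0 in sham mutants, against 67.8% ± 9.37 in sham wild type (SD, n = 4 each). These shares take no account of gene length and serve to compare groups.

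ITGB4 (ENSDARG00000028507), the partner of alpha 6 in hemidesmosomes, the anchors of epithelia to the basement membrane, was lower in mutants in both states. It had 3.75, 2.53, 4.44 and 3.47 CPM in injured mutants, against 5.80, 6.86, 11.9 and 8.20 CPM in injured wild type. Sham mutants had 7.76, 6.82, 5.07 and 3.79 CPM, against 10.6, 14.8, 7.82 and 13.0 CPM in sham wild type. Mutant libraries lay below all wild-type ones of the same state, the sham groups only just so, with a log2 fold change of -1.19 (SE 0.28, adjusted p = 0.0309) in injured fish and -0.99 (SE 0.28, adjusted p = 0.043) in sham fish. Leaving out injured wild type replicate 3 gave an adjusted p of 0.114 in injured fish, and leaving out sham wild type replicate 2 gave 0.134 in sham fish. With 1 library left out, the call was lost in 5 of 16 fits in injured fish and in 9 of 16 in sham fish. A replicate block gave an adjusted p of 0.0594 in injured fish and 0.0737 in sham fish.

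LAMA5 (ENSDARG00000058543) had 142, 113, 173 and 180 CPM in injured mutants, against 163, 352, 379 and 248 CPM in injured wild type. Sham mutants had 154, 146, 127 and 147 CPM, against 186, 250, 196 and 157 CPM in sham wild type. In injured fish 1 wild-type library lay among the mutant ones, and LAMA5 was called lower in mutants (-0.91, SE 0.22, adjusted p = 0.0352; 0.125 without injured wild type replicate 3). In sham fish every mutant library lay below every wild-type one, and the difference was not called (-0.46, SE 0.22, adjusted p = 0.258). Beside LAMA5, itga6b and ITGB4, 2 of the 6 epicardial marker genes (33.3%) were called lower in injured mutants, against 1.44% of all tested genes. They were TCF21 (-1.09, adjusted p = 0.0141) and TBX18 (-0.93, adjusted p = 0.0134). All 6 had a log2 fold change below 0, with a median of -0.89. For ALDH1A2, the most abundant of the list, it was -0.13 (adjusted p = 0.85). The list summed to 297 to 484 CPM in injured mutants, against 460 to 705 CPM in injured wild type, and these ranges overlap. In sham fish the same list summed to 203 to 232 CPM in mutants, against 201 to 369 CPM in wild type, with no gene called. Other lists also held genes called lower in injured mutants. These were plvapb of 7 endothelial and endocardial genes, DCN of 7 fibroblast genes and 2 of 3 erythrocyte genes. The endothelial gene plvapb averaged 8.03 CPM in injured mutants, against 20.9 CPM in injured wild type, while 4 genes of its list had a log2 fold change above 0. In the thrombocyte and smooth muscle lists 1 gene each was called higher. The part of epicardial or other cells in the lower LAMA5, itga6b and ITGB4 was not tested.

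The ITGB3 ID ENSDARG00000045070 was higher in sham mutants than in sham wild type with no overlap (1.71, SE 0.30, adjusted p = 0.00253), the lowest adjusted p of the members in the genotype comparisons. In injured fish it was not called (0.89, SE 0.27, adjusted p = 0.0938). Of the thrombocyte markers, GP1BB was called higher in injured mutants (1.92, adjusted p = 0.0227), and no gene of that list was called in sham fish. There the list summed to 309 to 330 CPM in mutants and 293 to 384 CPM in wild type. Most of that sum came from the THBS1 IDs and FLI1, with means of 62.6, 120 and 114 CPM in sham mutants. GP1BB averaged 15.1 ± 7.37 CPM in sham mutants, against 6.18 ± 3.54 CPM in sham wild type (SD, n = 4 each). In sham fish 5 of the 7 markers had a log2 fold change above 0 and 2 below. Of all tested genes, 2.56% were called between genotypes in injured fish and 5.81% in sham fish. Of 8 leukocyte markers, marco alone was called in sham fish, higher in mutants (1.77, adjusted p = 0.00699), and 7 were above 0. The leukocyte list summed to 200 to 412 CPM in sham mutants, against 119 to 194 CPM in sham wild type. The part of these lists in the higher ITGB3 was not tested. The smooth muscle gene acta2, which stood at 188, 305, 278 and 195 CPM in sham mutants, against 53.7, 79.9, 68.1 and 66.7 CPM in sham wild type, was called higher in mutants in both states (1.53 in injured fish, 1.84 in sham fish, adjusted p = 0.00278 and 0.000552). It was the only 1 of the 7 tested smooth muscle genes called in either state, and the median of these genes was 0.23 in injured fish and 0.01 in sham fish. The collagen-binding ITGA11 ID ENSDARG00000007950, an integrin of fibroblasts in mammals, had 7.07, 1.14, 2.93 and 1.99 CPM in sham mutants, against 11.8, 12.2, 11.7 and 6.31 CPM in sham wild type. It was called lower there (-1.67, SE 0.46, adjusted p = 0.0389), with 1 mutant library inside the wild-type range, and without sham mutant replicate 4 the adjusted p was 0.116. The call was lost in 6 of 16 fits with 1 library left out. In injured fish ITGA11 had 1.47, 1.52, 2.96 and 2.31 CPM in mutants, against 5.43, 10.8, 7.44 and 2.70 CPM in wild type, a difference of similar size that was not called (-1.64, SE 0.47, adjusted p = 0.0748).

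The ITGB1 ID ENSDARG00000071863 had the largest called fold change between genotypes among the 37 tested laminin, integrin and linker genes. It had 113, 53.3, 37.0 and 5.93 CPM in injured mutants, against 138, 210, 194 and 163 CPM in injured wild type. Sham mutants had 26.1, 41.4, 35.3 and 30.2 CPM, against 144, 134, 88.5 and 119 CPM in sham wild type. No mutant library reached a wild-type one of its state, and the injured mutants alone spread over a wide range. The log2 fold change was -1.87 (SE 0.49, adjusted p = 0.0297) in sham fish and -1.76 (SE 0.48, adjusted p = 0.0621) in injured fish, so the call stood in sham fish alone. Its adjusted p in sham fish was 0.0853 without sham mutant replicate 1 and 0.00104 without injured mutant replicate 4. The call there was lost in 7 of 16 fits with 1 library left out. With only the compared groups fitted, the adjusted p was 0.000249 in sham fish and 0.192 in injured fish. In injured fish its adjusted p was 0.00971 without injured mutant replicate 1 and 0.0264 without injured mutant replicate 4. As a share of the 4 ITGB1 IDs, ENSDARG00000071863 made up 19.6% ± 12.8 in injured mutants, against 53.9% ± 7.82 in injured wild type. Its share was 24.1% ± 4.31 in sham mutants, against 51.6% ± 4.65 in sham wild type (SD, n = 4 each). The summed ITGB1 level was 240 ± 84.4 CPM in injured mutants, against 326 ± 12.3 CPM in injured wild type. Sham mutants had 138 ± 4.86 CPM, against 234 ± 32.8 CPM in sham wild type. ENSDARG00000104484, the other abundant ID, was not called between genotypes (0.31, 95% interval -0.03 to 0.65, in injured fish; -0.11, 95% interval -0.45 to 0.23, in sham fish).

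**Figure D4:**
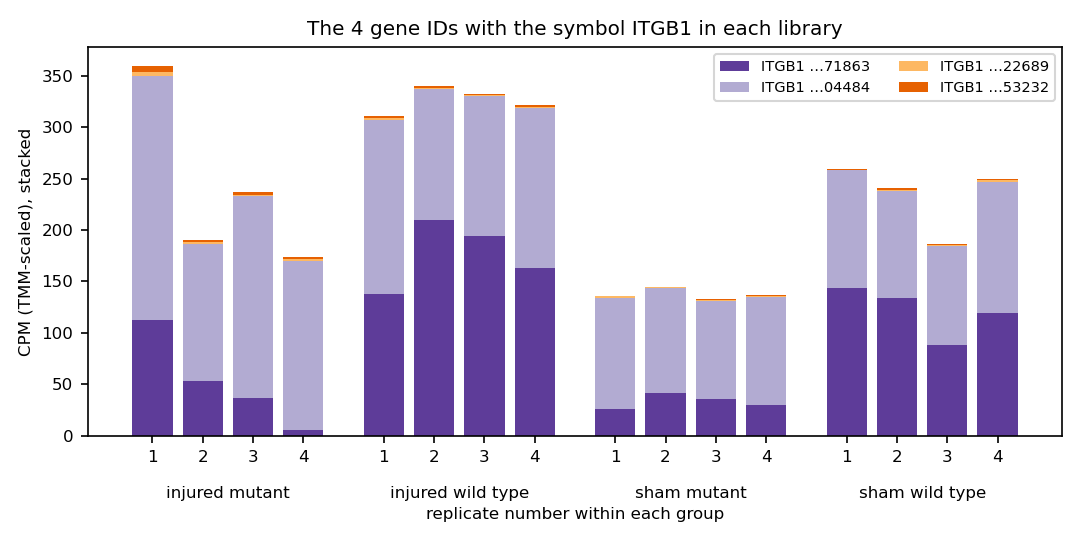
Stacked CPM of the 4 ITGB1 gene IDs, named by the last 5 digits of the Ensembl ID, in each of the 16 libraries, with injured mutants, injured wild type, sham mutants and sham wild type from left to right; levels are not corrected for gene length. The part of ENSDARG00000071863 is between 3.41% and 31.3% in the mutant libraries and between 44.4% and 61.9% in the wild-type ones, while ENSDARG00000104484 is present in all.

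Whether injury acted differently in the genotypes was asked with the interaction. None of the 37 members and none of the 14986 genes was called by edgeR's quasi-likelihood test (0%). DESeq2 gave an adjusted p to 24 of the 37 members, of which it called 0, and to 7757 of all genes, of which it called 44. LAMA1, ITGA8 and ITGB1 ENSDARG00000053232 were among the 13 members to which DESeq2 gave none. At an unadjusted p below 0.05 there were 4 members, LAMA1, ITGB1 ENSDARG00000053232, lamc1 and ITGA8, that is 10.8% of 37 against 7.71% of all tested genes. The 95% intervals were wide for low-count members, from 0.12 to 3.68 for ITGB1 ENSDARG00000053232 and from 0.02 to 4.58 for ITGA8, and narrow for abundant ones, from -0.29 to 0.68 for ITGAV and from -0.53 to 0.53 for NID1 ENSDARG00000068710.

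The proteins that connect integrins to the cytoskeleton and laminins to the rest of the basement membrane were given by a list of 67 names, of which 64 matched, as 56 gene IDs with 55 tested. After injury 19 were called in mutants (16 higher and 3 lower, 34.5%) and 20 in wild type (16 higher and 4 lower, 36.4%). In either direction these shares were nearer to the 28.9% and 25.3% of all tested genes than those of the laminins and integrins. The 16 of 55 called higher in each genotype stand against 16.5% of all tested genes called higher in mutants and 13.9% in wild type. Inside the cell, the actin crosslinker ACTN1 had 208, 130, 181 and 146 CPM in mutants and 123, 111, 85.1 and 149 CPM in wild type after injury. Sham values of ACTN1 were 33.3, 33.4, 40.6 and 31.4 CPM in mutants and 25.1, 30.3, 40.1 and 71.0 CPM in wild type. It rose in both without overlap (2.26, SE 0.27, adjusted p = 1.43e-05 in mutants; 1.49, SE 0.26, adjusted p = 0.000462 in wild type), as did vinculin VCL (ENSDARG00000098695; 0.89 in mutants and 0.69 in wild type) and the adaptor lims1 (1.02 in mutants and 0.55 in wild type). Both IDs of FERMT3, the kindlin of blood cells, rose in both genotypes, ENSDARG00000079267 by 2.19 in mutants and 2.35 in wild type on the log2 scale, beside the leukocyte markers. The integrin-linked kinase ILK was called in mutants (0.75, adjusted p = 0.003) and not in wild type (0.21, adjusted p = 0.397), with no call of the difference (0.54, unadjusted p = 0.0353, adjusted p = 0.611). PARVB and TLN2, parvin and talin genes, fell in both genotypes, PARVB by 0.81 in mutants and 0.72 in wild type and TLN2 by 0.80 in mutants and 0.77 in wild type on the log2 scale.

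Outside the cell, the collagen IV crosslinking enzymes and SPARC, a collagen IV binding protein, rose in both genotypes. PXDN, peroxidasin, had 72.9, 26.8, 68.0 and 82.5 CPM in mutants and 81.9, 71.5, 73.9 and 90.1 CPM in wild type after injury. In sham hearts PXDN had 28.0, 25.7, 19.1 and 37.6 CPM in mutants and 31.1, 23.0, 32.5 and 23.4 CPM in wild type. It was called in both (1.18, adjusted p = 0.00301 in mutants, where 1 injured library lay within the sham range; 1.53, adjusted p = 0.000457 in wild type, with no overlap). The lysyl oxidase genes loxl2a (2.60 in mutants, 1.41 in wild type) and LOXL2 (1.54 in mutants, 1.26 in wild type) were called too. The collagen IV chains COL4A1 and COL4A2, which form the network of nearly all basement membranes, rose in wild type (0.84, SE 0.18, adjusted p = 0.00234, and 0.90, SE 0.17, adjusted p = 0.000793). In mutants COL4A1 had 130, 75.7, 120 and 144 CPM in injured against 100, 99.4, 81.6 and 130 CPM in sham libraries, which overlapped, and neither chain was called. Their interaction was not called (-0.65, unadjusted p = 0.0198, adjusted p = 0.573 for COL4A1; -0.59, unadjusted p = 0.0223, adjusted p = 0.587 for COL4A2). FREM2 ENSDARG00000102626, of the Fraser complex that holds epithelia to the basement membrane, had 80.5, 57.0, 72.0 and 54.8 CPM in mutants and 90.8, 62.0, 68.8 and 45.5 CPM in wild type after injury. After sham operation ENSDARG00000102626 was at 12.9, 14.0, 13.1 and 15.6 CPM in mutants and 33.9, 29.7, 23.7 and 25.1 CPM in wild type. It rose by 2.25 in mutants and 1.25 in wild type on the log2 scale; its interaction had the lowest unadjusted p of the list (1.00, SE 0.27, unadjusted p = 0.0018, adjusted p = 0.309) and was not called.

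**Figure D5:**
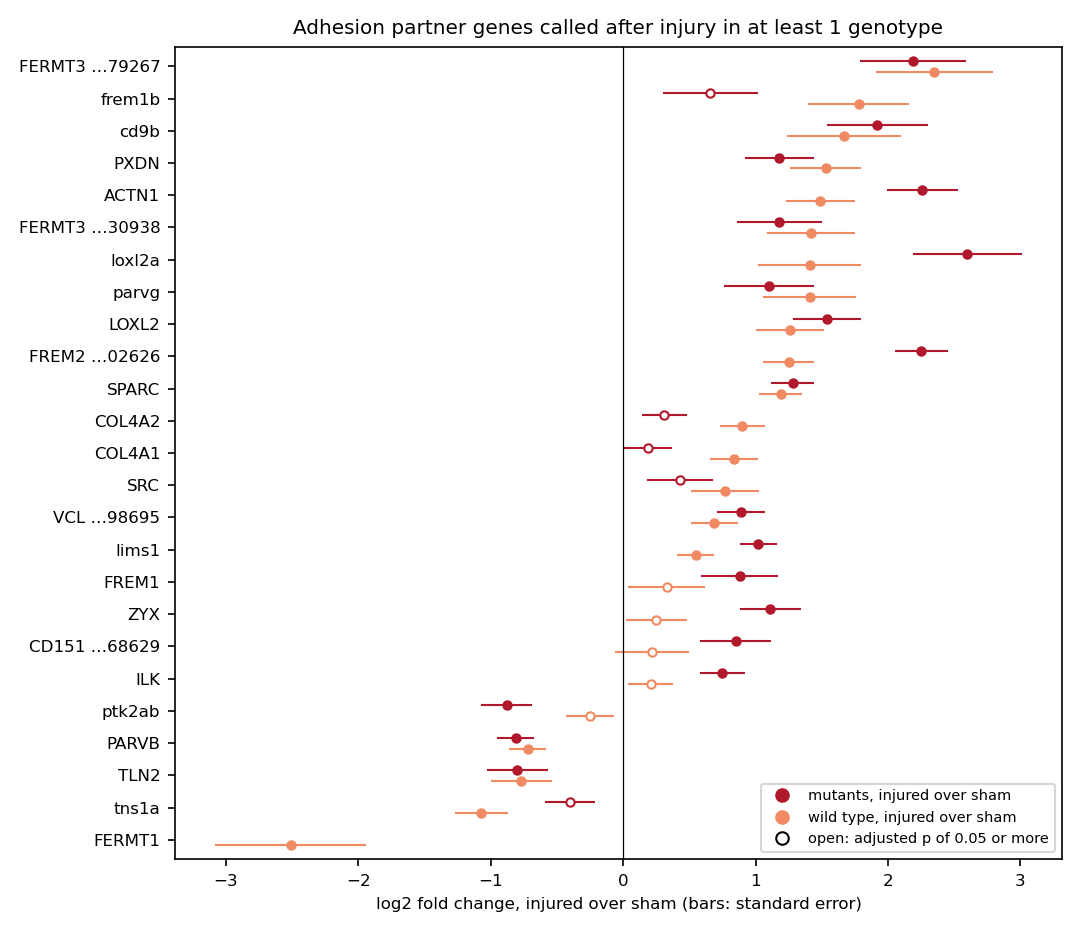
Log2 fold change of injured over sham ventricles for the 25 adhesion partner genes called in at least 1 genotype; points are edgeR estimates, bars are standard errors, filled points are called at an adjusted p below 0.05, and FERMT1 in mutants is left out because both groups had at most 3 counts per library. ACTN1 and loxl2a lie right of 0 in both genotypes (2.26 and 2.60 in mutants, 1.49 and 1.41 in wild type), and PARVB and TLN2 left of it.

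Between genotypes 2 partner genes were called in injured fish (3.64% of 55) and 8 in sham fish (14.5%), against 2.56% and 5.81% of all tested genes. The laminin receptor bcam, which binds the alpha 5 chain in human, was higher in mutants in both states, with 32.3, 37.8, 35.9 and 33.5 CPM in injured mutants, against 16.5, 9.30, 14.1 and 18.2 CPM in injured wild type. Sham mutants had 35.6, 41.2, 40.0 and 32.9 CPM, against 15.0, 24.4, 17.7 and 18.1 CPM in sham wild type. The groups were well apart (1.26, SE 0.19, adjusted p = 0.00157 in injured fish; 0.99, SE 0.19, adjusted p = 0.00434 in sham fish), while LAMA5 itself was lower in injured mutants. The second FREM2 ID, ENSDARG00000076856, was higher in mutants in both states (2.38, adjusted p = 0.0446 in injured fish; 3.14, adjusted p = 0.00735 in sham fish) from at most 20 counts per library. The collagen IV chains col4a5 and col4a6 were lower in sham mutants, col4a6 at 0.416, 0.650, 0.195 and 0.698 CPM, against 2.22, 3.02, 4.53 and 3.58 CPM in sham wild type (-2.65, SE 0.53, adjusted p = 0.00621), and col4a5 by 2.12 on the log2 scale (adjusted p = 0.0138). The epithelial kindlin FERMT1 had 0 counts in all 4 sham mutants, against 18 to 58 counts in sham wild type, so that it was at least 12.7-fold lower in sham mutants when set against 3 counts per library (adjusted p = 0.000593); it was also lower in injured than in sham wild type (-2.51, adjusted p = 0.00466). The dystrophin-complex gene SNTB1 (-1.89, adjusted p = 0.0104), LOXL2 (-1.06, adjusted p = 0.0229) and FREM2 ENSDARG00000102626 (-1.01, adjusted p = 0.00569) were the other partner genes called lower in sham mutants.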

How the data were processed

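RNA from 16 pools of 3 ventricles was sequenced as poly(A)-selected stranded libraries, per the labels' protocols, and the group and replicate of each library came from its title. The authors deposited 1 table of expected counts per Ensembl gene ID. The submitters' processing notes name fastp 0.23.4, STAR 2.7.0 and 2.7.10 and RSEM 1.3.3; genome build, annotation and use of strand in counting are not given in the sources used here. Before testing, the deposited expected counts were rounded; between 3.00% and 5.02% of them had a fractional part, depending on the library.

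Genes were filtered with filterByExpr, which left 14986, scaled by TMM (factors 0.815 to 1.26) and tested with edgeR 4.0.16 (quasi-likelihood F test, R 4.3.3, limma 3.58.1) in 1 fit of 4 group means, with 5 contrasts: injury in mutants, injury in wild type, genotype in injured fish, genotype in sham fish and their interaction. P-values were adjusted by Benjamini-Hochberg over all tested genes, with a threshold of 0.05. Standard errors came from the F statistic and 95% intervals from the fit's degrees of freedom; near a fold change of 0 both are approximate. Scripts were tested on simulated data. Alternatives were DESeq2 1.42.0, RLE scaling, no filter, 1 CPM in 8 libraries, a replicate block, the compared groups only, and leaving out each library. Another tested whether the log2 fold change lay beyond 1 in either direction.

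Of the tested members, 1 is not reported here and enters only the counts and medians over all members; per-library values are given for members called between genotypes, those with the lowest interaction p, and, per role, the largest called injury changes and the most abundant member, with further examples chosen after their values were seen. Members and lists were chosen with earlier results of these data known. Symbols came from a table of IDs and symbols. The list names ptk2aa, cd151l and cd9 and the marker names mpeg1.1, mpx, pecam1, vmhc, hbba1 and hbba2 matched no symbol. The remaining marker lists were erythrocyte genes (512 to 1492 CPM summed in injured mutants, 1263 to 6781 in injured wild type, 494 to 1083 in sham mutants, 1229 to 2511 in sham wild type) and Schwann cell genes (at most 10.1 CPM). A floor is 3 counts per library, and it covers counting error only, because PCR copies of 1 molecule are counted separately without molecular identifiers.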

Additional observations from a re-analysis of the deposited data

Results flagged for a closer look

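In 7 of 148 groups of 4 libraries (4.73%), 1 library stood apart from the other 3 by Dixon's criterion, which chance alone gives in about 1 of 20 groups. In injured fish, ITGA8 was at 4.68 CPM in injured mutant replicate 3, against 1.00 to 1.52 CPM in the other injured mutants. NID2 was at 97.8 CPM in injured wild type replicate 2, against 54.5 to 58.9 CPM in the other 3, and lama4 at 201 CPM in injured wild type replicate 1, against 271 to 280 CPM. In sham mutants, itgb2 was at 42.4 CPM in replicate 1, against 28.1 to 29.2 CPM, ITGAV at 20.1 CPM in replicate 2, against 29.3 to 29.8 CPM, and ITGA9 at 6.64 CPM in replicate 3, against 7.47 to 7.62 CPM. ITGA11 (ENSDARG00000007950) was at 6.31 CPM in sham wild type replicate 4, against 11.7 to 12.2 CPM in the other sham wild type. The library injured mutant replicate 2 was the lowest of its group for 19 of the 37 tested members, injured wild type replicate 1 likewise for 19, and sham mutant replicate 1 was the highest of its group for 18.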

How the results depend on the processing

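Depth limited the members of few counts (LAMA1 in sham wild type, ITGA8, itgb7, the low ITGB1 IDs), whose intervals are wide. A stricter edgeR test asked whether the log2 fold change lay beyond 1 in size, which is not a cutoff on the estimate. It called 5 members after injury in mutants, 6 after injury in wild type and 0 between genotypes in injured and in sham fish. Of the partner genes it called 4, 1, 0 and 1 in the same order. Estimates beyond 1 could fail this test, such as ITGB3 ENSDARG00000045070 between genotypes in sham fish (1.71, adjusted p = 0.223). Between genotypes in injured fish, 2 members were called with a replicate block, 1 with the compared groups only and 7 with DESeq2, and of the partner genes 1 with the compared groups only and 5 with DESeq2. DESeq2 called 634 of 14973 genes in that comparison. The other counts in this section have no share over all genes beside them. With 1 library left out, the members called ranged from 16 to 20 for injury in mutants, 17 to 20 for injury in wild type, 0 to 5 for genotype in injured fish and 2 to 5 for genotype in sham fish; partner genes ranged from 16 to 20, 18 to 20, 1 to 3 and 6 to 9. Genotype calls in injured fish fell to 0 without injured wild type replicate 3 and to 1 without injured mutant replicate 1 or 2 or injured wild type replicate 2. Those in sham fish fell to 2 without sham mutant replicate 2 or 4 or sham wild type replicate 1 or 2, and to 3 without sham mutant replicate 3 or sham wild type replicate 4. The interaction stayed at 0 member calls under the alternatives run, but DESeq2 gave no adjusted p to 13 of the 37 members and 15 of the 55 partner genes, and the compared groups only cannot be fitted for it. Libraries of the same replicate number were at most weakly correlated, with values on both sides of 0. Over 16 same-numbered pairs, deviations from group means correlated from -0.15 to 0.21, and 5 pairs exceeded 0.1. Among the 4 libraries of the compared group, 6 matched their own number best. In the injury comparisons the correlations ran from -0.15 to 0.14. Between genotypes the correlations were 0.21, 0.08, 0.03 and 0.17 in injured fish and 0.15, -0.01, 0.03 and 0.11 in sham fish. These values do not settle whether the numbers pair the libraries. The replicate block gave 17 members called after injury in mutants, 18 in wild type, 2 between genotypes in injured fish and 4 in sham fish. ITGA3 in mutants lost its call under RLE scaling, no filter, 1 CPM in 8 libraries, the block and the compared groups only. Leaving out 1 library also added calls in 12 comparisons of 11 members: injury in mutants for ITGA1, ITGA5, ITGB4 and ITGB1 ENSDARG00000071863; injury in wild type for LAMA5, ITGB1BP1 and ITGB1 ENSDARG00000104484; genotype in injured fish for ITGA3, ITGA11 ENSDARG00000007950, ITGB3 ENSDARG00000045070 and ITGB1 ENSDARG00000071863; and genotype in sham fish for LAMA1. Some fold changes that were not called changed sign. LAMB1 ENSDARG00000045524 in mutants (-0.01) became 0.00 with no filter and with the replicate block and 0.02 with 1 CPM in 8 libraries and with the compared groups only. With 1 library left out, LAMB1 ENSDARG00000045524 in mutants ranged from -0.13 to 0.09, LAMB2 in wild type from -0.05 to 0.15, ITGA5 in wild type from -0.38 to 0.02, LAMA5 in mutants from -0.01 to 0.20, itga6b in wild type from -0.10 to 0.26, ITGB1 ENSDARG00000071863 in mutants from -0.06 to 1.03 and AGRN in wild type from -0.04 to 0.09. In mutants ITGA11 ENSDARG00000007950 (-0.64) became 0.07 without sham mutant replicate 1 and itga2.3 (-1.09) became 0.07 without sham mutant replicate 2. The causes were not tested.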
